A study of Rattus norvegicus with 6 samples.

Results

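RNA of 9 transcription factor genes linked to axon regeneration was measured in rat dorsal root ganglia after nerve injury. They are Atf3 (gene ID 25389), Jun (24516), Sox11 (84046), Klf6 (58954), Klf7 (363243), Klf4 (114505), Klf9 (117560), Cebpb (24253) and Creb1 (81646). The genes were chosen by name for that link and make up 9 of the 14346 genes with a value in the 6 libraries. All 9 were listed in all 6 libraries, and 8 passed the filter on low counts that left 11091 genes to test, while Creb1 did not. Dorsal root ganglia hold the cell bodies of sensory neurons with their glia, and were taken 7 days after partial sciatic nerve ligation (pSNL, 3 libraries) or 7 days after a sham operation (sham, 3 libraries). The ligature closes on some axons of the sciatic nerve and spares others, so both kinds run to the same ganglia. The sources used here do not give the strain, sex and age of the rats, the spinal level of the ganglia or the number of animals behind a library. The libraries held 4339565 to 4416121 estimated counts in pSNL and 4310643 to 4412391 in sham. Thus 1 CPM, the unit of counts scaled to library size, stood for about 4.31 to 4.42 counts. These are values before the library sizes were adjusted by normalization factors (TMM) of 0.990 to 1.015.

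A sensory neuron whose peripheral axon is cut switches on a growth programme in its cell body. Kinase signals that travel back along the axon activate Jun, a basic leucine zipper (bZIP) protein of the AP-1 complex, and Atf3, a bZIP protein of the ATF family used as a marker of axotomised neurons in the rat. Sox11, an HMG-box factor of developing neurons, supports axon growth of sensory neurons in the mouse. Among the Krüppel-like zinc finger factors, Klf6 and Klf7 raise neurite growth of rodent central neurons and Klf4 and Klf9 lower it. Cebpb is a bZIP factor that acts on injury and cytokine genes, and Creb1 binds the cyclic AMP response element (CRE).

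The stretches upstream of the transcription start are shown for 4 members that differ in role and in response, with matches to the sites that these families bind in capitals. A RefSeq table of the GRCr8 assembly held such windows for 7 of the 9 members, and none for Atf3 and Jun. Each line gives the 250 bases before the annotated start, read 5′ to 3′ on the strand of the gene. Sox11 lies at chr6:49738795-49739044 (minus strand), Klf6 at chr17:69458479-69458728 (minus), Klf9 at chr1:230126396-230126645 (plus) and Cebpb at chr3:176816755-176817004 (plus).
Sox11: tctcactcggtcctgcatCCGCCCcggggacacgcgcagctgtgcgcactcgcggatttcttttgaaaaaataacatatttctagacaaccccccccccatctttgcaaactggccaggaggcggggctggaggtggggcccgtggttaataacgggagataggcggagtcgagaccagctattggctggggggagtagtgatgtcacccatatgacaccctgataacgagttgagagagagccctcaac
Klf6: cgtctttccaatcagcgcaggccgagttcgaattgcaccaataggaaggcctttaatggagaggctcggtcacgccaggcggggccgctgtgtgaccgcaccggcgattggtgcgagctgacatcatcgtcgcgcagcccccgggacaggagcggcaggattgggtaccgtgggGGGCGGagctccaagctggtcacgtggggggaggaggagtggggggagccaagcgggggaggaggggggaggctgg
Klf9: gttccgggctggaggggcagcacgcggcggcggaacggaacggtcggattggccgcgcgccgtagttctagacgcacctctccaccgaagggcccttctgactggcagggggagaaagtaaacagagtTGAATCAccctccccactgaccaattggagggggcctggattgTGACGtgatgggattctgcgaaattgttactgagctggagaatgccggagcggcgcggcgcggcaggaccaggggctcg
Cebpb: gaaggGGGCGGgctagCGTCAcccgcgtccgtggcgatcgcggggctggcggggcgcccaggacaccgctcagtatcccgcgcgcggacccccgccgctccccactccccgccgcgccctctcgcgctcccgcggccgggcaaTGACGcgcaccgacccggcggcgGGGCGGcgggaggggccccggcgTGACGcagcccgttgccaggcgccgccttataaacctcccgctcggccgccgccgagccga

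The motifs were searched on both strands as the full CRE TGACGTCA, a short CRE, TGACG, which lies inside the full site, the AP-1 site TGANTCA and the GC box CCGCCC that Klf and Sp factors bind. Cebpb had 3 short CREs, beginning 234, 107 and 61 bases before the start, and 2 GC boxes at 245 and 84 bases. Klf9 had an AP-1 match at 122 bases and a short CRE at 79 bases. Sox11 had a GC box at 232 bases and Klf6 had one at 76 bases, and neither held any of the other motifs. Over the 7 members with a window, 3 held a short CRE (Klf9, Cebpb and Creb1), 1 an AP-1 match, 5 a GC box (Sox11, Klf6, Klf7, Cebpb and Creb1) and 0 the full CRE. Of all 33469 windows of this length, 18.2% held a short CRE, 6.34% an AP-1 match, 30.5% a GC box and 1.59% the full CRE. These matches are letters in a window and not measured binding.

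Some libraries stood apart from the rest of their group. Markers of central glia summed to 9.99 to 13.2 CPM in pSNL, against 19.9, 13.1 and 1282 CPM in sham replicates 1 to 3. Skeletal muscle markers summed to 15.2, 15.3 and 954.7 CPM in pSNL replicates 1 to 3, against 19.0, 13.5 and 513.6 CPM in the sham replicates. Sham replicate 3 thus carried transcripts of both tissues and pSNL replicate 3 those of muscle, while pSNL replicate 2 was far above all others in immediate early genes.

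Atf3, Sox11, Jun and Klf6 were higher in every pSNL library than in every sham library, while the groups overlapped for Klf7, Klf4, Klf9, Cebpb and Creb1. Sox11 rose 4.34-fold and was the 1 of 8 tested members past the adjusted p threshold of 0.05 (edgeR quasi-likelihood test, Benjamini-Hochberg over all tested genes). The fitted difference was 12.5-fold for Atf3 and 1.77-fold for Klf6. Both missed that threshold in edgeR and passed it in DESeq2. Across all 11091 genes, edgeR called 51, or 0.460%, and 49, or 0.442%, were called higher in pSNL. DESeq2 called 3 of the 8 members, and 332 of the 11501 genes to which it gave an adjusted p, or 2.89%. An unadjusted edgeR p under 0.05 was found for 5 of the 8 members (Atf3, Sox11, Jun, Klf6 and Klf7) and for 15.5% of tested genes. Groups that did not overlap, with pSNL higher, were found for those 4 of the 8 tested members and for 11.1% of tested genes. All 8 fitted log2 fold changes were positive, with a median of 0.99, where the median over all tested genes was -0.0024. Positive values were also found for 10 of 10 tested Klf and Sp relatives, 16 of 19 bZIP relatives and 12 of 12 immediate early genes. They were found for 3 of 9 Sox relatives and for 5480 of all 11091 tested genes. In bulk RNA from whole ganglia, fewer cells of a type and less RNA per cell cannot be told apart.

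**Figure D1:**
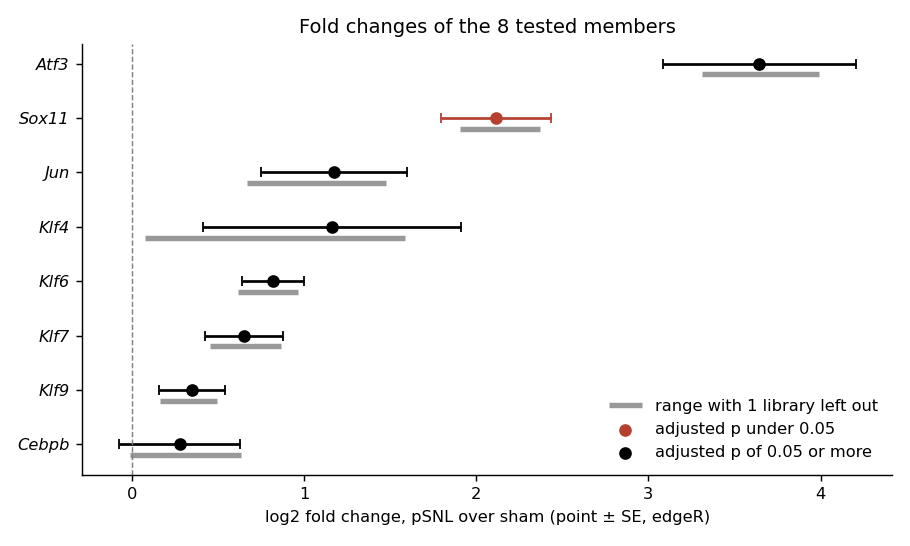
Fitted log2 fold change of each tested member, pSNL over sham, with its standard error (points and thin bars) and the range of the estimate when 1 of the 6 libraries is left out (grey bars). Atf3 (3.64) and Sox11 (2.12) lie farthest to the right, Sox11 alone is marked as past the adjusted p of 0.05, and the grey bar of Cebpb reaches 0.

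Atf3 had the widest separation. It had 97.6, 294 and 234 CPM in pSNL replicates 1 to 3, against 11.5, 15.8 and 22.8 CPM in sham replicates 1 to 3. The lowest pSNL library was thus well above the highest sham library, but the pSNL libraries were far apart among themselves, with a mean of 209 ± 101 CPM in pSNL and 16.7 ± 5.69 CPM in sham (SD, n = 3 each). The log2 fold change was 3.64 ± 0.56 (SE) and the adjusted p was 0.0891 in edgeR and 1.01e-08 in DESeq2. Against the sham mean, pSNL replicate 1 was higher by 2.57 on the log2 CPM scale, replicate 2 by 4.16 and replicate 3 by 3.83. Leaving out pSNL replicate 1, the lowest of the 3, gave a log2 fold change of 3.99 and an edgeR adjusted p of 0.00248. In the other 5 fits with a library left out Atf3 was not called, with adjusted p from 0.14 to 0.309 and log2 fold changes from 3.31 to 3.93.

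Sox11 was a gene of low abundance. It had 9.76, 19.9 and 17.4 CPM in pSNL replicates 1 to 3, against 3.44, 4.36 and 2.99 CPM in the sham replicates. These stood for 43, 86 and 76 counts in pSNL and 15, 19 and 13 counts in sham, and the groups did not overlap. The log2 fold change was 2.12 ± 0.32 (SE; edgeR adjusted p = 0.024, DESeq2 adjusted p = 6.09e-05). The edgeR call held without pSNL replicate 1 (adjusted p = 0.0035) or 3 (0.0499). It was lost without pSNL replicate 2 (0.108) or without sham replicate 1 (0.0896), 2 (0.13) or 3 (0.0532), while the log2 fold change stayed between 1.91 and 2.37 in all these fits.

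Jun, the partner that Atf3 and the Fos proteins bind, was already abundant in sham. It had 185, 534 and 290 CPM in pSNL replicates 1 to 3, against 139, 163 and 145 CPM in the sham replicates. The sham libraries lay close together, whereas pSNL replicate 1 stood just above them and replicate 2 far above. The means were 336 ± 179 CPM in pSNL and 149 ± 12.8 CPM in sham (SD, n = 3 each). The log2 fold change of 1.18 ± 0.43 (SE) did not pass the test (adjusted p = 0.304 in edgeR, 0.167 in DESeq2), and it was 0.67 without pSNL replicate 2.

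**Figure D2:**
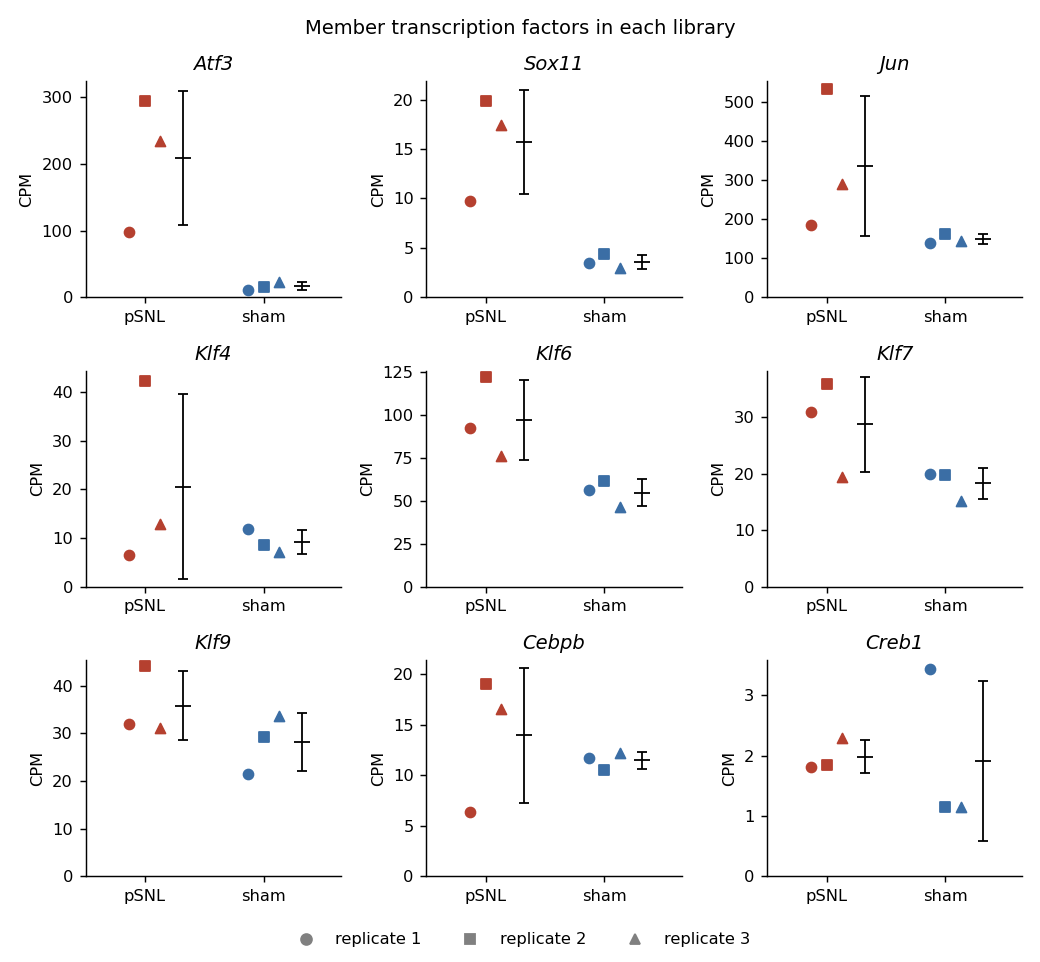
CPM of each of the 9 genes in every library, pSNL in red and sham in blue, with the mean and SD of 3 libraries beside the points and an axis of its own for each gene. The groups are apart for Atf3, Sox11, Jun and Klf6, and pSNL replicate 2 (square) is the highest library for every gene but Creb1.

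Klf6 and Klf7, the growth-promoting Klf factors, were less separated than Atf3 and Sox11. Klf6 had 92.4, 122 and 76.1 CPM in pSNL replicates 1 to 3, against 56.2, 61.7 and 46.4 CPM in the sham replicates, with no overlap. Its log2 fold change was 0.82 ± 0.18 (SE; adjusted p = 0.0871 in edgeR and 0.00201 in DESeq2), and edgeR called it without pSNL replicate 3 (adjusted p = 0.0409) but in none of the other 5 fits with a library left out (0.119 to 0.22). Klf7 had 30.9, 35.8 and 19.5 CPM in the pSNL replicates, against 19.9, 19.7 and 15.2 CPM in the sham replicates. Replicates 1 and 2 of pSNL stood above all sham libraries, and replicate 3 lay among them. The log2 fold change of Klf7 was 0.65 ± 0.22 (SE; adjusted p = 0.212 in edgeR and 0.239 in DESeq2), and without pSNL replicate 3, the library behind the overlap, it was 0.86 (edgeR adjusted p = 0.0619). Both are fairly long transcripts in the files, Klf6 with 4206 bases and Klf7 with 3208, and length moved with the libraries. Over the 1259 tested genes of 4000 to 6000 bases, where Klf6 falls, the median difference from the sham mean on the log2 scale was 0.13 in pSNL replicate 1, 0.15 in replicate 2 and -0.04 in replicate 3. Over the 1632 genes of 3000 to 4000 bases, where Klf7 falls, it was 0.03, 0.05 and -0.04. With that trend removed from each library, the log2 fold change was 0.75 for Klf6 (edgeR adjusted p = 0.0751) and 0.63 for Klf7 (0.205).

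Neither of the growth-suppressing Klf factors passed the test, and each had overlapping groups. Klf4 had 6.58, 42.3 and 12.8 CPM in pSNL replicates 1 to 3, against 11.9, 8.49 and 7.12 CPM in the sham replicates. A single library, pSNL replicate 2, decided its average. That library was far above all 3 sham libraries, while pSNL replicate 1 was below all of them and replicate 3 just above. The log2 fold change of Klf4 was 1.16 ± 0.75 (SE; adjusted p = 0.527 in edgeR and 0.277 in DESeq2), and without pSNL replicate 2 it was 0.08. Klf9, which is also a thyroid hormone and glucocorticoid target, had 32.0, 44.2 and 31.2 CPM in the pSNL replicates, against 21.5, 29.1 and 33.6 CPM in the sham replicates. Its log2 fold change was 0.35 ± 0.19 (SE; adjusted p = 0.42 in edgeR and 0.672 in DESeq2), and it was 0.16 without pSNL replicate 2 and 0.19 without sham replicate 1. The overlap rested on sham replicate 3, and without that library the log2 fold change was 0.49 (edgeR adjusted p = 0.294). Without both replicates 3 it was 0.585 (0.203).

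Cebpb, whose upstream window held the 3 short CREs shown above, had 6.36, 19.0 and 16.5 CPM in pSNL replicates 1 to 3, against 11.7, 10.6 and 12.2 CPM in the sham replicates. The sham libraries agreed closely, while the pSNL libraries lay on both sides of them, replicate 1 below and replicates 2 and 3 above. Its log2 fold change of 0.28 ± 0.35 (SE) did not pass the test (adjusted p = 0.753 in edgeR, 0.916 in DESeq2), and without pSNL replicate 2 it was -0.008. Creb1 was near the limit of detection, with 1.82, 1.85 and 2.29 CPM in the pSNL replicates, against 3.44, 1.15 and 1.15 CPM in the sham replicates. Over each group these were 26 counts in pSNL and 25 in sham, a ratio of 1.04 with an exact 95% counting interval of 0.58 to 1.88 that covers counting error only. Sham replicate 1 held 15 of the 25 sham counts, and without it the ratio was 1.73 (0.808 to 4.03). A difference of Creb1 within these intervals was not detectable at this depth, and the action of its protein is known to turn on phosphorylation, which RNA counts do not measure.

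Per transcript length, in the authors' FPKM values, Jun was the most abundant of the 9 in 5 of 6 libraries. Its level was 59.7, 170 and 91.4 FPKM in pSNL replicates 1 to 3, against 43.8, 51.6 and 46.7 FPKM in the sham replicates. Atf3 stood at 51.3, 152 and 120 FPKM in the pSNL replicates, against 5.87, 8.12 and 11.9 FPKM in the sham replicates. It thereby took first place in pSNL replicate 3 and second place in pSNL replicates 1 and 2, against places 6, 4 and 3 in sham replicates 1 to 3. The ratio of Atf3 to Jun in FPKM was 0.859, 0.894 and 1.31 in the pSNL replicates, against 0.134, 0.158 and 0.255 in the sham replicates, with no overlap. Klf6 came next among the pSNL libraries, at 22.0, 28.6 and 17.7 FPKM, against 13.1, 14.4 and 11.0 FPKM in sham. Sox11, for all its fold change, reached only 4.85, 9.72 and 8.43 FPKM in pSNL, against 1.67, 2.12 and 1.48 FPKM in sham. Klf9 had 11.2 to 16.1 FPKM in pSNL and 7.78 to 12.4 FPKM in sham, and Klf7 had 5.95 to 11.0 FPKM in pSNL and 4.70 to 6.11 FPKM in sham. Cebpb had 3.50 to 10.3 FPKM in pSNL and 5.67 to 6.68 FPKM in sham, and Klf4 had 2.77 to 17.6 FPKM in pSNL and 2.99 to 4.90 FPKM in sham. Klf7, Klf4, Cebpb and Sox11 changed places from library to library in pSNL, where their ranges of FPKM overlapped each other.

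**Figure D3:**
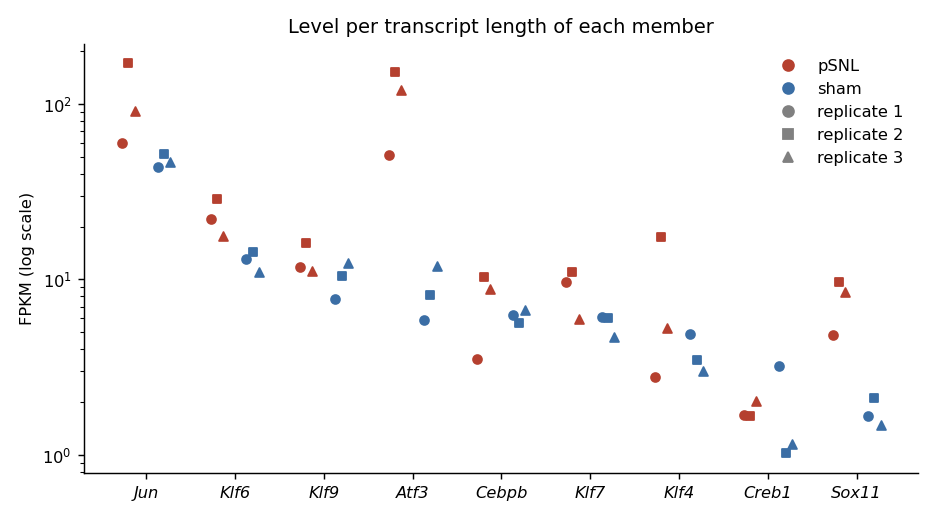
FPKM of each gene in every library on a log axis, pSNL (red) left of sham (blue) and marker shape for the replicate, with genes in the order of their mean level in sham. Jun leads in sham, and the pSNL points of Atf3 (51.3 to 152 FPKM) lie beside those of Jun (59.7 to 170 FPKM), while its sham points are at 5.87 to 11.9 FPKM.

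The growth-promoting and growth-suppressing Klf factors were set side by side in the same unit. Klf6 and Klf7 together had 31.7, 39.6 and 23.6 FPKM in pSNL replicates 1 to 3, against 19.2, 20.4 and 15.7 FPKM in the sham replicates. Klf4 and Klf9 together had 14.6, 33.6 and 16.5 FPKM in pSNL, against 12.7, 14.0 and 15.4 FPKM in sham. The ratio of the first sum to the second was 2.17, 1.18 and 1.43 in pSNL, against 1.51, 1.45 and 1.02 in sham, so the groups overlapped in this ratio although they did not in the first sum. Within the Jun family (Jun, Junb and Jund), Jun made up 44.9%, 41.1% and 43.3% of the summed FPKM in pSNL, against 33.2%, 35.7% and 35.3% in sham. Junb, another early responder, had 7.83, 129 and 22.9 FPKM in pSNL, against 9.46, 13.6 and 7.26 FPKM in sham. Jund, the steadily expressed member, had 65.4, 115 and 96.7 FPKM in pSNL, against 78.6, 79.2 and 78.3 FPKM in sham. The Jun share was higher in all 3 pSNL libraries than in all 3 sham libraries, including pSNL replicate 1, whose summed FPKM of 133 for the 3 genes was within the sham range of 132 to 144.

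All 8 tested members were highest in pSNL replicate 2, where 22.0% of tested genes had their highest value. That library also carried a very high level of immediate early genes, which respond within minutes to activity, stress or handling of tissue. All 12 tested genes of that list were highest there. So were all 6 fibroblast markers, 62.5% of the tested genes on a list of other injury transcription factors and 59.3% of those on a list of regeneration effectors. Fos, the AP-1 partner of Jun, had 3.18, 426 and 14.4 CPM in pSNL replicates 1 to 3, against 4.81, 8.26 and 7.12 CPM in the sham replicates. Egr1, a zinc finger factor, had 11.1, 165 and 15.4 CPM in pSNL, against 8.48, 14.2 and 12.2 CPM in sham. Summed over 14 such genes, the level was 269.5, 2028 and 534.4 CPM in pSNL, against 285.2, 292.2 and 199.5 CPM in sham. In FPKM, Fos stood at 0.034, 1.58 and 0.0985 times Jun in pSNL, against 0.0688, 0.100 and 0.0973 times Jun in sham. None of the 12 was called by edgeR or by DESeq2, which gave no adjusted p for Fos and Egr1. An unadjusted edgeR p under 0.05 was found for 2 (Ier3 with a log2 fold change of 0.80 and Egr2 with 1.20), and for 15.5% of all tested genes. The part of the immediate early or fibroblast transcripts of this library in the members' values was not tested beyond leaving it out. Without it the log2 fold changes were 3.31 for Atf3, 1.91 for Sox11, 0.67 for Jun, 0.61 for Klf6, 0.45 for Klf7, 0.16 for Klf9, 0.08 for Klf4 and -0.008 for Cebpb, and edgeR called none of them.

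**Figure D4:**
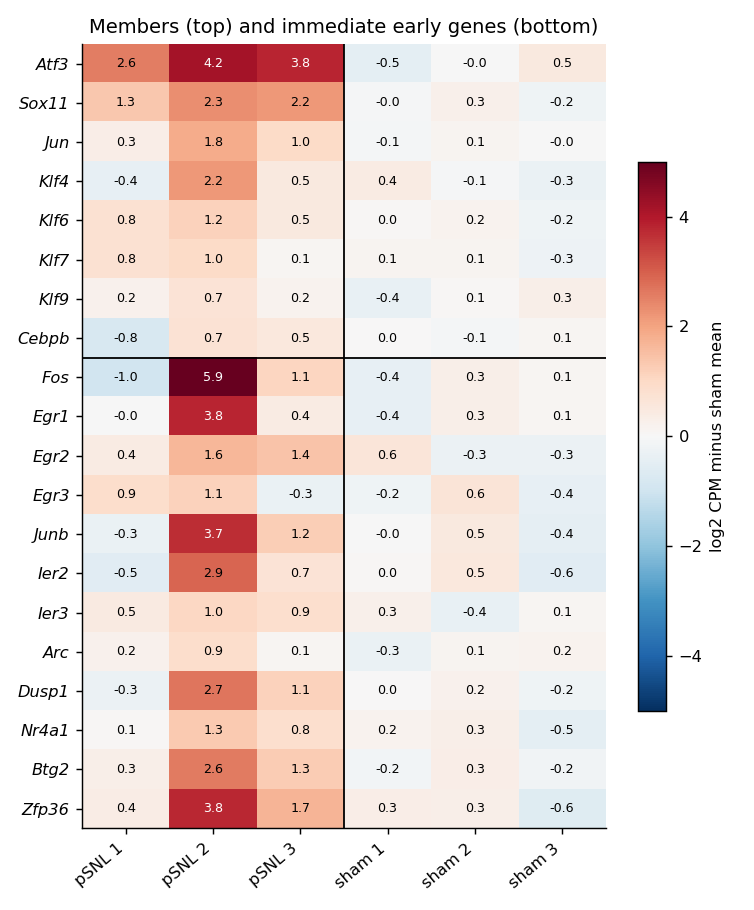
Difference of each library from the sham mean on the log2 CPM scale (prior count 2) for the tested members (upper rows) and the tested immediate early genes (lower rows), with pSNL columns left and sham columns right. The second pSNL column is the highest in every row, with 4.2 for Atf3, 1.8 for Jun and 2.2 for Klf4 beside 5.9 for Fos and 3.8 for Egr1.

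Relatives of the members by protein family were counted in the same fit. For comparison, edgeR called 0.460% of all tested genes and DESeq2 2.89%, and 15.5% had an unadjusted edgeR p under 0.05. Of 19 tested bZIP relatives, 0 were called by edgeR and 1 by DESeq2, 6 had an unadjusted edgeR p under 0.05, and the median log2 fold change was 0.26. The smallest p values were those of Atf7, an ATF2-like factor (log2 fold change 1.50, edgeR adjusted p = 0.140), Creb3l2, a membrane-bound factor of the secretory pathway (1.21, 0.184), and Crem, a cyclic AMP-responsive factor (0.45, 0.201). Cebpd, the relative of Cebpb that DESeq2 called (adjusted p = 0.031), had 17.5, 46.9 and 29.4 CPM in pSNL, against 19.5, 9.87 and 9.65 CPM in sham. Of 10 tested Klf and Sp relatives, 0 were called by either tool and 0 had an unadjusted p under 0.05, with a median of 0.13. Klf2, a factor of vessels and immune cells, had the smallest p (log2 fold change 0.98, edgeR adjusted p = 0.542), followed by Sp4 (0.66, 0.546) and Sp1 (0.13, 0.637). Of 9 tested Sox relatives, 0 were called by either tool, 2 had an unadjusted p under 0.05 and both of these had values lower in pSNL, with a median of -0.24 for the list. These were Sox18, a factor of vessels (log2 fold change -1.70, edgeR adjusted p = 0.157), and Sox2, a factor of satellite glia (-0.59, 0.167), followed by Sox13 (-0.20, 0.527).

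Other transcription factors of nerve injury were measured beside the members. Of 16 tested, edgeR called 0, DESeq2 2 and 6 had an unadjusted p under 0.05, with 14 positive values and a median log2 fold change of 0.29. Over all genes, DESeq2 called 2.89%, and 15.5% had an unadjusted edgeR p under 0.05. Nfil3, a bZIP repressor of CREB and C/EBP targets, had 10.2, 17.6 and 16.3 CPM in pSNL, against 6.65, 4.59 and 7.12 CPM in sham (adjusted p = 0.0816 in edgeR and 0.0317 in DESeq2). Smad1, which carries BMP signals, had 51.8, 73.5 and 71.3 CPM in pSNL, against 38.5, 45.4 and 43.9 CPM in sham (0.0861 and 0.0421). Rela, a subunit of NF-kappaB, followed with a log2 fold change of 0.33 (edgeR adjusted p = 0.233). Nfil3, Smad1 and Rela were among 9 of the 16 genes whose groups did not overlap, with pSNL higher, as in 11.1% of tested genes.

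Kinases, cytokines and receptors that act on these factors were also counted. Of 21 tested genes of this upstream signalling list, edgeR called 0 and DESeq2 2, with 6 at an unadjusted p under 0.05 and a median log2 fold change of 0.13. The shares over all genes were 2.89% called by DESeq2 and 15.5% with an unadjusted edgeR p under 0.05. Prkar2a, a regulatory subunit of protein kinase A, had 22.5, 31.4 and 11.9 CPM in pSNL, against 8.48, 8.95 and 7.58 CPM in sham (adjusted p = 0.101 in edgeR and 0.00824 in DESeq2). Socs3, the feedback inhibitor of JAK and STAT signalling, had 4.31, 46.7 and 8.49 CPM in pSNL, against 1.60, 2.30 and 1.61 CPM in sham (0.277 and 0.0377). Its peak, like that of Klf4, was in pSNL replicate 2. Osmr, the oncostatin M receptor, had a log2 fold change of 0.73 (edgeR adjusted p = 0.176), and Prkaca, the catalytic subunit of protein kinase A, one of -0.22 (0.256).

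Genes that such factors act on, or that mark a regenerating neuron, were followed as regeneration effectors. Of 27 tested, edgeR called 3 higher (Sprr1a, Arg1 and Gap43) and 0 lower, DESeq2 called 14, 26 fitted values were positive and the median log2 fold change was 0.86. Over all genes, edgeR called 0.442% higher in pSNL and DESeq2 called 2.89% in either direction. Sprr1a, a small proline-rich protein of axotomised neurons, had 6.81, 13.2 and 14.9 CPM in pSNL, against 0, 0 and 0.23 CPM in sham (edgeR adjusted p = 0.00493). Arg1, an enzyme of polyamine synthesis, had 10.9, 29.1 and 18.1 CPM in pSNL, against 1.83, 1.61 and 3.91 CPM in sham (0.0361). Gap43, a growth cone protein, had 436, 684 and 572 CPM in pSNL, against 264, 315 and 275 CPM in sham (0.0416). The sham level of Sprr1a rests on 1 count, and the gene stayed called whichever library was left out, with edgeR adjusted p from 0.001 to 0.0429. Arg1 and Gap43 kept the call only without pSNL replicate 1, and their adjusted p was 0.0532 to 0.206 and 0.0883 to 0.167 in the other fits with a library left out. Gap43 also missed the threshold with relative log expression (RLE) factors in place of TMM in edgeR (0.0506) and with the length trend removed (0.0649). This list was drawn up from genes known for this injury.

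**Figure D5:**
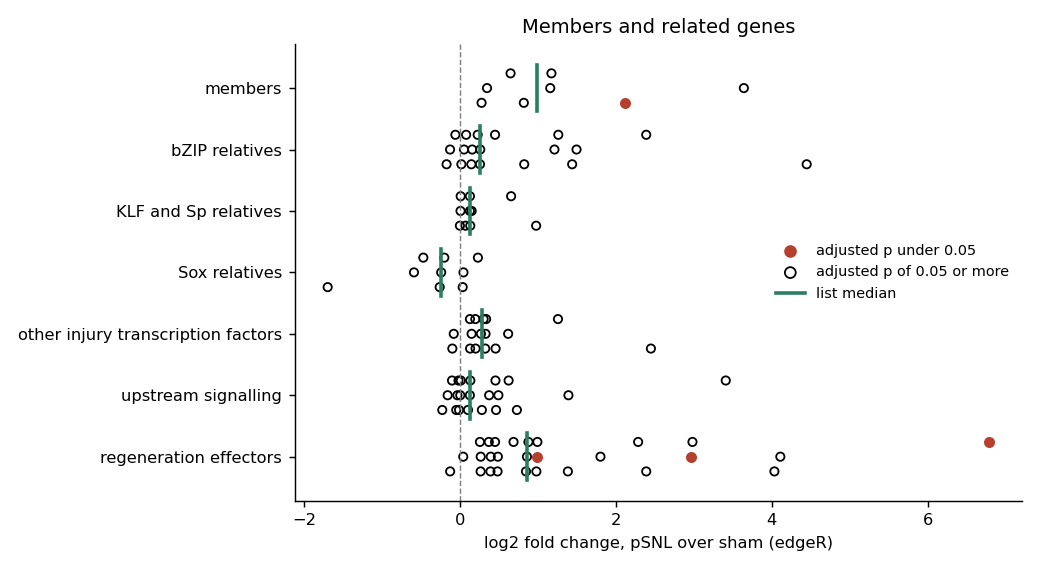
Fitted log2 fold change, pSNL over sham, of every tested gene in each list (open circles, filled red past an adjusted p of 0.05 in edgeR), with the list median as a green line. The medians are 0.99 for the members and 0.86 for the effectors, against 0.26, 0.13 and -0.24 for the bZIP, Klf and Sp, and Sox relatives.

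The genes with a profile most like a member over the 6 libraries were found by the root mean square difference of centred log2 CPM values, over 10002 genes with a mean of at least 5 CPM. Nearest to Atf3 were Ankrd1, an ankyrin repeat protein (0.35), the MHC class II genes RT1-Bb (0.42), RT1-Da (0.43) and Cd74 (0.43), and the tight junction gene Cldn4 (0.43), where the median gene differed by 1.86. Nearest to Sox11 were Gadd45a, a stress and DNA repair factor (0.14), the thrombomodulin gene Thbd (0.24), the class II gene RT1-DMb (0.25), the proteoglycan Sdc1 (0.25) and the membrane protein Smagp (0.27), where the median gene differed by 1.05. Among the nearest to Jun were the adhesion receptor Pvr (0.13), the small GTPase Rhoq (0.17), Misp3 (0.17) and the GDNF receptor Gfra1 (0.18), where the median gene differed by 0.71. The values were centred but not scaled, so the difference of the median gene depends largely on how much the member itself varied. The sham means of Ankrd1 (0.230 CPM), Cldn4 (1.15), Smagp (2.22), RT1-Bb (3.75) and Misp3 (3.75) were below 5 CPM, so they passed that limit only through pSNL. The fitted difference was 39.25-fold for Ankrd1 and 18.9-fold for Cldn4, against 12.5-fold for Atf3. The nearness of these 2 genes thus depends on the prior count of 2 added to near-zero sham values. Profiles over 6 libraries are short, and reads of the RT1 genes may be split between close copies.

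Markers of the ganglion were checked in the same libraries, where edgeR called 0.460% of all tested genes and DESeq2 2.89%. Sensory neuron markers were abundant in every library, with 10 of 11 listed genes measured. Their summed level was 15551 to 17304 CPM in pSNL and 18074 to 21403 CPM in sham. Nefl alone made up most of that sum, with 8793 to 9998 CPM in pSNL and 11072 to 13480 CPM in sham. Of the 10 markers, 8 had a negative fitted value, edgeR called 0 and DESeq2 called 3 (Snap25, Syp and Nefl). Groups that did not overlap, with pSNL lower, were found for those 3 and Rbfox3, 4 of the 10, and for 1154 of all 11091 tested genes. Macrophage markers summed to 254, 418.9 and 410.3 CPM in pSNL, against 165.5, 148.7 and 181.1 CPM in sham. Lyz2 was the largest part of that sum, with 166 to 282 CPM in pSNL and 85.9 to 112 CPM in sham. Of the 8 macrophage markers, 7 had a positive fitted value and 1 (Cd163) a negative one, and edgeR called 0. Fibroblast markers summed to 4109, 6858 and 4813 CPM in pSNL, against 3728, 2562 and 1679 CPM in sham. All 6 had a positive fitted value, and edgeR called 0. Macrophages and fibroblasts can both express Atf3, Jun, Klf4, Klf6 and Cebpb, and the part of their share in the members' values was not tested. Sham replicate 3, in which central glia transcripts were high, was also the sham library with the most Atf3. Without that library the log2 fold change of Atf3 was 3.93 (edgeR adjusted p = 0.193). Without both replicates 3, edgeR called Klf6 (adjusted p = 0.0484) and not Sox11 (0.0681) among the members. The part of these foreign transcripts in the members' values was not tested further. Schwann cell markers summed to 19573 to 30622 CPM in pSNL and 17327 to 20668 CPM in sham. Satellite glia markers summed to 4972 to 6069 CPM in pSNL and 6307 to 6738 CPM in sham. Most of that sum was Apoe, whose groups overlapped, with 4421 to 5570 CPM in pSNL and 5306 to 6243 CPM in sham. Of the 5 satellite glia markers, 2 had a positive fitted value (Cdh19 and Kcnj10) and 3 a negative one. Glul, another of them, had 949 CPM in sham replicate 3, against 442 and 425 CPM in sham replicates 1 and 2. Endothelial markers summed to 115.1 to 142.9 CPM in pSNL and 127.9 to 167.3 CPM in sham, and blood cell markers to 1018 to 4987 CPM in pSNL and 2578 to 6503 CPM in sham.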

How the data were processed

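Per the file headers, each library has per gene an expected count, a length and an FPKM value. Expected counts are the authors' estimates of reads per gene, of which 89.1% to 89.5% were whole numbers. The FPKM values were made by the authors from those counts and the gene length. Per the submitters' processing notes, CASAVA 1.4 and Bowtie2 were among the tools. The sources used here do not give the quantifier, genome build, annotation or use of strand, so reads of overlapping genes and of close family members may be shared. Genes that a library's file does not list were set to 0. Symbols came from a RefSeq table of GRCr8, for 14227 genes through the gene ID and for 16 through a transcript accession, which left 103 with their ID alone. Coordinates and sequences come from RefSeq on GRCr8 and not from the deposited files.

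Expected counts were rounded to whole numbers and tested with edgeR 4.0.16 in R 4.3.3 (TMM factors, default filter on low counts, robust quasi-likelihood fit, Benjamini-Hochberg adjustment over 11091 genes, threshold 0.05). Standard errors were derived from the test statistic. DESeq2 1.42.0 was run as an alternative. CPM values use TMM-scaled library sizes and log2 CPM a prior count of 2. Levels of different members and of the Jun family and Fos were compared in FPKM. Marker and immediate early genes were summed in CPM, which is not scaled to transcript length. The scripts were tested on simulated counts. Groups and replicate numbers came from the sample titles. Nothing in the labels says that libraries are separate animals, so the p-values rest on the spread among libraries, part of which may be technical. Counts per gene limit precision: at 1 CPM a library holds about 4 counts, and reads carry no molecular identifiers.

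The members and the 16 other lists (195 genes, 158 of them tested) were chosen with earlier results of these data known, so lists were described by counts and medians without a test. Named genes are all members, listed genes past the threshold or, where none passed, up to 3 with the smallest p, genes needed for a count of at most 5, and the 5 genes most like Atf3, Sox11 and Jun. Of these, 1 gene that this rule names is not reported here. Fos, Junb, Jund, Egr1, Socs3, Apoe and Glul were added after their values were seen. Alternatives covered scaling, filters, rounding, robust fitting, DESeq2, a replicate block and each library left out, with a fit without both replicates 3, a fit without the length trend and Creb1 ratios with a library left out added after seeing the data.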

Additional observations from a re-analysis of the deposited data

How the results depend on the processing

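The count of genes past the threshold, 51, was 89 without a filter on low counts, 332 with DESeq2 and 102 without both replicates 3 (added after seeing the data). With 1 library left out it ran from 5 to 217, with 217 without pSNL replicate 1, 9 without pSNL replicate 2, 96 without pSNL replicate 3, 21 without sham replicate 1, 5 without sham replicate 2 and 33 without sham replicate 3. The count of members, 1, was 3 with DESeq2 (Atf3, Sox11 and Klf6), 2 without robust fitting (Atf3, adjusted p = 0.0155, and Sox11), and 0 to 2 with 1 library left out. With the replicate number as a block, 111 genes and 3 members (Atf3, Sox11 and Klf6) were called. Deviations of same-numbered libraries from their group means correlated at 0.03, 0.01 and 0.12, against -0.10 to 0.10 for other pairs. The 0.12 was that of replicates 3, which both carried muscle transcripts. With 3 libraries a group, these correlations cannot settle whether the numbers pair the libraries. Over 8 members and 16 alternatives, 114 of 128 fold changes kept direction and side of the threshold, 8 passed it anew, 5 (all Sox11) no longer passed it, and 1 reversed: Cebpb had a log2 fold change of -0.008 without pSNL replicate 2, where its range with 1 library left out was -0.008 to 0.632. The cause of these changes was not tested. Depth limits Creb1, which was below the filter, and Sox11, with 13 to 86 counts a library.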
